A study of Mus musculus with 10 samples.

Results

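Caveolins and cavins are the coat proteins of caveolae, and their mRNA levels were followed in mouse lung after repeated airway exposure to IL-33. The family was chosen by gene symbol and holds 6 of the 53465 genes listed for each library: the caveolins Cav1, Cav2 and Cav3 and the cavins Cavin1, Cavin2 and Cavin3. It was picked with the IL-33 against control values of these same libraries already known, so the differences between the groups in these 6 genes are given below as a description and carry no test of their own. RNA came from whole lungs of 10 BALB/c mice. Of these, 5 were given IL-33, an alarmin released by injured epithelium, as a nasal dose of 1 µg in 35 µL once a day for 5 days, and were sampled 24 hours after the final dose. The 5 control mice are described as untreated, and the sources used here do not say whether they were given vehicle, nor the age or sex of the animals. Reads counted in genes came to 7805175 to 13178798 in IL-33 libraries and 8935159 to 13767118 in control libraries.

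Caveolae are flask-shaped pits of the plasma membrane. Caveolin-1 is the main structural protein outside striated muscle, caveolin-2 joins it in mixed oligomers and depends on it to leave the Golgi, and caveolin-3 takes its place in heart and skeletal muscle. Cavin-1 wraps the caveolin scaffold and is needed for caveolae to form, while cavin-2 and cavin-3 join the coat through it, and cavin-2 is known to shape endothelial caveolae in mouse lung. In lung, caveolae are dense in capillary endothelium and in alveolar type 1 cells, the flat epithelium of gas exchange.

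The family is spread over 4 chromosomes of GRCm38, all members being protein-coding. Cav2 (ENSMUSG00000000058, chromosome 6, 17281185 to 17289115) and Cav1 (ENSMUSG00000007655, chromosome 6, 17306335 to 17341452) lie in tandem on the plus strand with 17220 bases between them. Cav3 (ENSMUSG00000062694) lies far off on the same chromosome at 112459505 to 112472872. Cavin1 (ENSMUSG00000004044) is on chromosome 11 at 100956733 to 100970887, Cavin2 (ENSMUSG00000045954) on chromosome 1 at 51289126 to 51302960 and Cavin3 (ENSMUSG00000037060) on chromosome 7 at 105480083 to 105482300. Cav1, Cav2, Cavin1 and Cavin2 have similar exonic lengths, 3444, 3335, 3587 and 3055 bases, whereas Cavin3 has 1662 and Cav3 1157 bases. No 75-base window of any member's transcripts recurs in another gene, except for 18.9% of the windows of Cavin3, which lie over a numbered gene model, Gm45667, on the opposite strand. Gm45667 held 26 reads over all 10 libraries. The strand setting of the counting is not given, so reads in that overlap may have been set aside as ambiguous.

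The proximal promoters of the 4 abundant members, picked after their values were seen, are shown. They come from RefSeq (GRCm38.p6), read 5′ to 3′ on the strand of the gene, and run from 250 bases before to 20 bases after the RefSeq start; 5 members matched a window by symbol. Capitals mark the letters of a GC box (GGGCGG on either strand) or a CCAAT box (CCAAT on either strand). The windows are chr6:17306085-17306354 (plus strand), chr6:17280935-17281204 (plus), chr11:100970598-100970867 (minus) and chr1:51288876-51289145 (plus). For Cav1 and Cavin1, which have 2 RefSeq windows each, the more upstream is shown, and that of Cavin1 lies inside the GENCODE gene, whose start is further upstream.
Cav1: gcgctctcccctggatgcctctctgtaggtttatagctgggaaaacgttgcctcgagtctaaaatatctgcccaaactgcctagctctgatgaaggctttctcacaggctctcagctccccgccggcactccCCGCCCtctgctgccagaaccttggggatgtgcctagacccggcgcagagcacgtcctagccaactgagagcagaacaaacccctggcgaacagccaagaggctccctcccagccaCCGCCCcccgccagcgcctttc
Cav2: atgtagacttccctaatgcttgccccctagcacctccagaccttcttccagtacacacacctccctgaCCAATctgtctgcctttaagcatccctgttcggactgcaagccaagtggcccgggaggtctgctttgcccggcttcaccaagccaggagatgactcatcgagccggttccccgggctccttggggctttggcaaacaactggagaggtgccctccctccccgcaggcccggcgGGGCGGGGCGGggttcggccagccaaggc
Cavin1: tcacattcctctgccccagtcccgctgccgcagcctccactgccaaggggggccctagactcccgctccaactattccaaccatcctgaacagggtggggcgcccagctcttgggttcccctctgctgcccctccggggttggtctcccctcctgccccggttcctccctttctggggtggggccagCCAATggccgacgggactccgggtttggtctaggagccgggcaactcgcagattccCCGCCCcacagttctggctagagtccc
Cavin2: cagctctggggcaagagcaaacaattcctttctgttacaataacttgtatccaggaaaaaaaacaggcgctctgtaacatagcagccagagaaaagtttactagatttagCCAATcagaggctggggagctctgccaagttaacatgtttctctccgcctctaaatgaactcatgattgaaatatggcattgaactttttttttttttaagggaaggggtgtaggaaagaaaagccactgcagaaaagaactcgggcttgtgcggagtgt
Positions below count the first base of the match from the start. GC box letters stand at -118 and -2 in Cav1, at -9 and -4 in Cav2, where the copies overlap by 1 base, and at -7 in Cavin1, and they are not in the Cavin2 or Cav3 window. CCAAT letters stand at -182 in Cav2, -63 in Cavin1 and -140 in Cavin2. Over all 32851 RefSeq windows of 300 bases, 35.7% hold the GC box letters and 37.4% the CCAAT letters. The Cavin2 window had 43.3% GC and 4 CpG pairs, against 59.3% and 13 for Cav1, 64.3% and 16 for Cav2, 66.7% and 17 for Cavin1 and 58% and 6 for Cav3, with a median of 7 CpG pairs over all windows. Of the other letters searched on both strands, TATAAA (in 13.6% of all windows) was found on the opposite strand of Cav1 at -221, and TGANTCA, the AP-1 motif (7.81%), in Cav2 at -92. A STAT6-type motif, TTC and GAA held apart by 4 bases of any kind (6.95%), was in none of the 5 windows. The bearing of these sequences on the levels of the members was not tested.

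Of the 6 members, all of which passed the low-count filter, 4 were called lower and 1 higher in IL-33 lungs in a fit over all genes, and 1 was not called. A gene was called when its p from the quasi-likelihood test of edgeR, adjusted over all genes tested by the method of Benjamini and Hochberg, was under 0.05. Over all 15695 genes tested, 69.9% were called, 34.8% lower and 35.1% higher. The groups did not overlap for 5 members, and for 56.5% of all genes tested. The median log2 fold change of the members was -0.77, against -0.01 for all genes tested. Levels are given as CPM, the reads of a gene scaled to a common library size. Fold changes are IL-33 over control throughout, with the SE taken from log2(CPM + 0.1) over the 5 and 5 libraries. In bulk lung RNA, fewer cells of a type and less RNA per cell cannot be told apart.

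Cav1, the scaffold of caveolae, was the most abundant member. It stood at 666, 511, 659, 694 and 764 CPM in IL-33 libraries 1 to 5, against 1439, 1320.2, 1435, 1647 and 1544 CPM in control libraries 1 to 5. Every IL-33 value lay well below the lowest control value. The means were 659 ± 92.6 CPM in IL-33 and 1477 ± 124 CPM in control lungs (SD, n = 5 each), a log2 fold change of -1.16 ± 0.11, or 2.24-fold lower. Among the genes tested, Cav1 ranked 132nd by mean CPM in IL-33 lungs and 40th in control lungs.

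Cav2, the partner of caveolin-1 in mixed oligomers, had 161, 120.1, 162, 154 and 183 CPM in IL-33 libraries, against 450, 403, 399.8, 482 and 479.8 CPM in control libraries. The groups stood apart, with IL-33 library 2 lowest, as for Cav1. Cav2 averaged 156 ± 22.7 CPM in IL-33 and 443 ± 39.9 CPM in control lungs, a log2 fold change of -1.51 ± 0.12, or 2.84-fold lower.

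Cav3, the muscle caveolin, was rare in lung, with 17 to 36 reads in IL-33 libraries and 11 to 29 in control libraries. Its levels were 2.96, 2.53, 2.2, 1.95 and 2.68 CPM in IL-33 libraries, against 2.05, 2.73, 1.58, 0.963 and 1.52 CPM in control libraries. The groups overlapped, and the log2 fold change of 0.48 ± 0.26 was not called. Without control library 2, the highest control, it was 0.66 and was called, and after a correction for transcript length and GC content it was -0.06.

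Cavin1, the coat protein that caveolae cannot form without, had 536, 544, 577, 539 and 523 CPM in IL-33 libraries, against 696, 673, 769, 738 and 642 CPM in control libraries. The highest IL-33 library lay below the lowest control library, by a smaller margin than for Cav1 or Cav2. Cavin1 averaged 544 ± 20 CPM in IL-33 and 704 ± 50.7 CPM in control lungs, a log2 fold change of -0.37 ± 0.05, or 1.29-fold lower. It was also the most even member in IL-33 lungs, with a coefficient of variation of 3.68%, against 14.1% to 18.7% for the other 5 members there.

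Cavin2 had the largest difference of the 6. It stood at 215, 134, 189, 192 and 228 CPM in IL-33 libraries, against 648, 604, 606, 683 and 691 CPM in control libraries. No IL-33 library came near the control range. The means were 192 ± 35.9 CPM in IL-33 and 646 ± 40.9 CPM in control lungs, a log2 fold change of -1.75 ± 0.14, or 3.37-fold lower. Only 231 of the 15695 genes tested had a lower fold change than Cavin2, while 427 lay below Cav2, 956 below Cav1 and 4681 below Cavin1.

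Cavin3, first described as a binding protein of protein kinase C delta, went the other way. It had 56.8, 63.4, 55.5, 44.0 and 46.7 CPM in IL-33 libraries, against 38.0, 35.2, 41.1, 31.4 and 32.9 CPM in control libraries. All 5 IL-33 values exceeded the highest control, the lowest by a small margin. Cavin3 averaged 53.3 ± 7.9 CPM in IL-33 and 35.7 ± 3.9 CPM in control lungs, a log2 fold change of 0.57 ± 0.12, or 1.49-fold higher. This call did not survive the correction for length and GC content, described next.

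**Figure D1:**
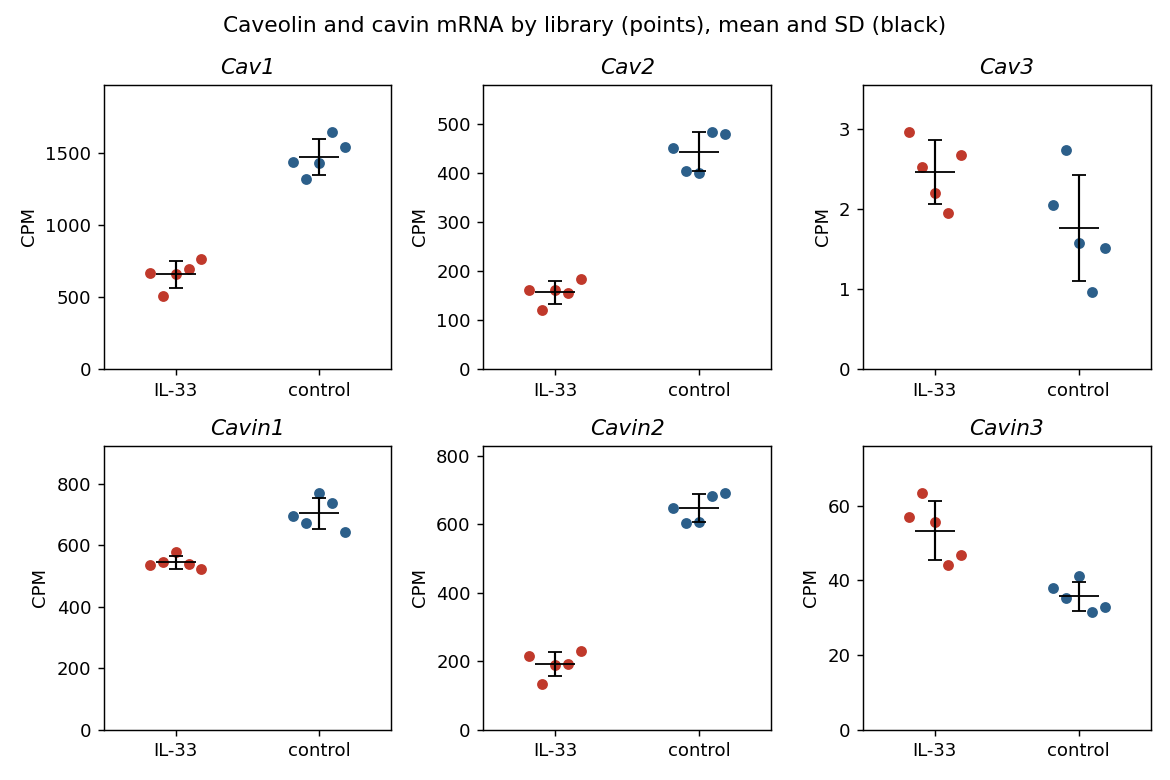
Levels of the 6 members in CPM (vertical axes, each from 0) in IL-33 and control lungs, 1 point per library, with the mean and SD of 5 libraries in black. IL-33 libraries lie below all control libraries for Cav1, Cav2, Cavin1 and Cavin2 and above them for Cavin3, and the groups overlap for Cav3.

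The members differ in length and base composition, so the fit was repeated with offsets. These take out, library by library, the smooth dependence of levels on exonic length and on the GC content of the longest transcript. In the repeated fit the log2 fold changes were -1.26 for Cav1, -1.62 for Cav2, -0.28 for Cavin1 and -1.91 for Cavin2. These 4 were called lower as before. Over all genes tested, the repeated fit called 10720 in either direction, against 10975 without the offsets. The 2 short members moved most. Cavin3 had 0.18 and was not called, and 0.18 but called when the replicate number was added as a block, while Cav3 had -0.06. Among the 4 abundant members, which are similar in length but differ in GC content (37.5% in Cav2, 42.6% in Cav1, 44.4% in Cavin2 and 57.3% in Cavin1), the values ran from -0.37 for Cavin1 to -1.75 for Cavin2 without the offsets and from -0.28 to -1.91 with them.

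The proportions within the coat also differed between the groups. These are ratios of reads within 1 library, which do not depend on how libraries are scaled. They are not corrected for exonic length or GC content. There were 0.805, 1.07, 0.876, 0.777 and 0.684 Cavin1 reads per Cav1 read in IL-33 libraries, against 0.484, 0.510, 0.536, 0.448 and 0.416 in control libraries. The lowest IL-33 library exceeded the highest control, and the mean ratio was 0.842 ± 0.143 in IL-33 and 0.479 ± 0.048 in control lungs. Cav2 reads per Cav1 read were steadier, at 0.237 ± 0.009 in IL-33 and 0.300 ± 0.0143 in control lungs, again with no overlap. Cavin2 reads came to 0.290 ± 0.0225 per Cav1 read and 0.354 ± 0.0728 per Cavin1 read in IL-33 lungs, against 0.438 ± 0.0187 per Cav1 read and 0.924 ± 0.103 per Cavin1 read in control lungs. Cavin3 reads per Cavin1 read were 0.0979 ± 0.0137 in IL-33 and 0.0508 ± 0.00478 in control lungs. For this pair the log2 fold changes were 0.57 for Cavin3 and -0.37 for Cavin1 without the length and GC offsets. With the offsets they were 0.18 and -0.28. Cavin1 held 34.1% ± 3.57 of all reads of the family in IL-33 libraries and 21.3% ± 1.76 in control libraries, while Cav1 held 40.9% ± 2.56 in IL-33 and 44.6% ± 1.09 in control libraries, with overlapping groups. All of these ratios come from the contrast that was known when the family was chosen.

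**Figure D2:**
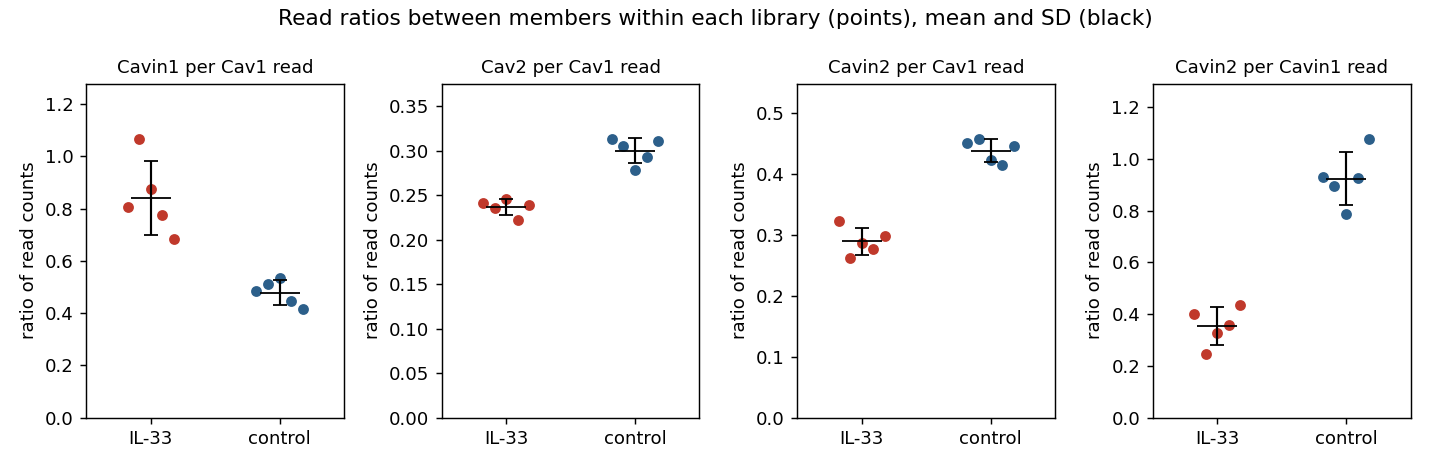
Ratios of read counts between 2 members within each library (vertical axes, each from 0) for IL-33 and control lungs, 1 point per library, mean and SD of 5 libraries in black. Cavin1 per Cav1 is higher in every IL-33 library than in any control, and the other 3 ratios are lower in every IL-33 library.

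Levels of different genes were compared as CPM per kilobase of exon. In IL-33 lungs the order was Cav1 (191 ± 26.9 CPM per kb), Cavin1 (152 ± 5.58), Cavin2 (62.8 ± 11.8), Cav2 (46.7 ± 6.80), Cavin3 (32.1 ± 4.76) and Cav3 (2.13 ± 0.343). Cavin1 stood above Cavin2 in all 5 IL-33 libraries without overlap, and its range overlapped that of Cav1, which was higher in 4 of 5. The ranges of Cavin2 and Cav2 overlapped in IL-33 lungs, as did those of Cav2 and Cavin3. In control lungs the order was Cav1 (429 ± 36 CPM per kb), Cavin2 (212 ± 13.4), Cavin1 (196 ± 14.1), Cav2 (133 ± 12.0), Cavin3 (21.5 ± 2.34) and Cav3 (1.53 ± 0.574). Of neighbours in that order only Cavin2 and Cavin1 had overlapping ranges, and Cavin2 was the higher of the pair in 4 of 5 control libraries. Over the family, the summed level was 1606 ± 138 CPM in IL-33 and 3308 ± 199.5 CPM in control lungs. IL-33 library 2 had the lowest sum, 1376 CPM, and was lowest for Cav1, Cav2 and Cavin2 but highest for Cavin3. It was the lowest IL-33 library in the summed level of alveolar type 1, pan-endothelial and capillary marker genes, at 3098, 3087 and 1062 CPM. It was lowest, too, in alveolar type 2 markers, at 14722 CPM. Among IL-33 libraries it was the highest in leukocyte, fibroblast and cycling cell marker genes, at 3212, 5322 and 644 CPM. The same held for smooth muscle and pericyte markers and for cardiac and skeletal muscle markers, at 1500.2 and 677 CPM. How cell content bears on the values of this library was not tested. Without IL-33 library 2 the log2 fold changes were -1.08 for Cav1, -1.42 for Cav2, -1.64 for Cavin2 and 0.51 for Cavin3.

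The neighbourhood of the tandem pair Cav2 and Cav1 was examined after the values of the members were seen. Within 500 kb on either side, 6 other genes were tested, of which 3 were called lower and 3 higher, beside 34.8% lower and 35.1% higher over all genes tested. Tes, the nearest tested protein-coding gene on the Cav2 side, which encodes a focal adhesion protein, rose to 67.8 CPM in IL-33 lungs, against 31.3 CPM in control lungs (log2 1.11 ± 0.08, adjusted p = 1.66e-07 by edgeR). Met, the hepatocyte growth factor receptor and the nearest on the Cav1 side, had 74.7 CPM in IL-33 and 91.0 CPM in control lungs (log2 -0.28 ± 0.10, adjusted p = 0.0168 by edgeR). Gm15581, an antisense gene that spans both caveolin genes without overlapping their exons, held 2 reads over all libraries.

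Likeness of pattern was measured as the root mean square difference over the 10 libraries of log2(CPM + 0.1), each gene centred on its own mean, among 13832 other genes at 1 CPM or more. The difference between the groups makes up most of each profile, and the libraries of a group share it. Within the family, Cav2 and Cavin2 were the most alike (0.146), followed by Cav1 and Cav2 (0.18), while Cavin1 differed from Cav1 by 0.439 and Cavin2 from Cavin3 by 1.22. Nearest to Cav1 were Phldb2 (0.058), which anchors microtubules at the cell cortex, Dennd2a (0.067), Oxr1 (0.068), Ccdc9b (0.074) and Magi1 (0.075), a junctional scaffold. Nearest to Cav2 were Tspan12 (0.065), a tetraspanin of Norrin signalling, and Rrm2b (0.077), a ribonucleotide reductase subunit. Nearest to Cavin2 were Scnn1g (0.081), a subunit of the epithelial sodium channel, and Akap5 (0.090), a kinase anchor that is in the alveolar type 1 marker list here. Rassf3 (0.044) and Rad23b (0.057) were nearest to Cavin1, Serbp1 (0.055) and Chmp2a (0.062) to Cavin3, and, at a greater distance, Rangrf (0.194) and Aacs (0.209) to Cav3.

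Genes whose products build or bound caveolae or related membrane domains were mostly lower in IL-33 lungs. Of 13 such genes, 9 fell, 1 rose and 3 were not called, with a median log2 fold change of -0.42. Ehd4, an ATPase of the EHD family found at caveolae, fell to 366 ± 41.4 CPM in IL-33 lungs, against 760.2 ± 118 CPM in control lungs (log2 -1.05 ± 0.13, adjusted p = 3.29e-06). Ehd3 of the same family fell to 14.5 ± 1.6 CPM in IL-33 lungs, against 31.5 ± 1.6 CPM in control lungs (log2 -1.11 ± 0.08, adjusted p = 1.81e-07). Ehd2, the ATPase that rings the caveolar neck, was named after its values were seen; it had 281 ± 32.3 CPM in IL-33 and 583 ± 68.5 CPM in control lungs (log2 -1.05 ± 0.10, adjusted p = 9.96e-07). These p-values and those below are from edgeR's quasi-likelihood test, adjusted over all genes tested. Pacsin2, the membrane-bending F-BAR protein of caveolae, also named afterwards, had a log2 fold change of -0.78 ± 0.11 (adjusted p = 9.83e-06). Its relative Pacsin1, best known from neurons, rose to 4.48 ± 0.922 CPM in IL-33 lungs, against 2 ± 0.879 CPM in control lungs (log2 1.15 ± 0.28, adjusted p = 0.00134). Plvap, which forms the diaphragm across the neck of endothelial caveolae, was the most abundant of the 13 by the mean of all libraries, with 554 ± 44.5 CPM in IL-33 and 664 ± 75.8 CPM in control lungs; the groups overlapped, the log2 fold change was -0.26 ± 0.09 (adjusted p = 0.0206), and without IL-33 library 4 it was -0.23 and not called. The genes not called were Ehd1 (log2 -0.14), Pacsin3 (-0.19) and Flot1 (0.02), a flotillin of a separate kind of membrane domain. With the length and GC offsets 7 of the 13 fell and 1 rose, and the median log2 fold change was -0.44. Ehd4 then had -0.99, Ehd3 -0.83, Ehd2 -0.84, Pacsin2 -0.61, Plvap -0.44 and Pacsin1 1.51 on the log2 scale.

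Receptors, enzymes and channels known to sit in caveolae or to bind caveolin-1 gave a like count, with 14 of 18 lower, 2 higher and 2 not called and a median log2 fold change of -0.67. Kdr, the main endothelial VEGF receptor, fell to 234 ± 43.4 CPM in IL-33 lungs, against 688 ± 12.2 CPM in control lungs (log2 -1.55 ± 0.13, adjusted p = 1.33e-07). Trpc1, a cation channel, fell by 1.37 on the log2 scale (adjusted p = 3.28e-07). Pdgfrb, a mural cell receptor, fell by 1.33 on the log2 scale (adjusted p = 6.16e-08). Cd36, a fatty acid transporter and the most abundant of the 18, fell to 1047 ± 128 CPM in IL-33 lungs, against 1557 ± 88.0 CPM in control lungs (log2 -0.57 ± 0.09, adjusted p = 0.000113). Trpv4, a mechanosensitive channel, rose to 7.82 ± 1.04 CPM in IL-33 lungs, against 3.73 ± 0.797 CPM in control lungs (log2 1.08 ± 0.17, adjusted p = 9.53e-05), and Slc7a1, a cationic amino acid transporter, rose by 0.68 on the log2 scale (adjusted p = 0.000158). Nos3, the endothelial nitric oxide synthase that caveolin-1 holds inactive, was named after its values were seen and had 25.5 ± 2.78 CPM in IL-33 and 36.6 ± 7.01 CPM in control lungs (log2 -0.52 ± 0.15, adjusted p = 0.00273), with overlapping groups. With the length and GC offsets Nos3 had -0.33 (adjusted p = 0.0293 by edgeR), Kdr -1.21, Trpc1 -1.10, Pdgfrb -1.09 and Cd36 -0.65 on the log2 scale. Trpv4 had 1.29 and Slc7a1 1.11 with them. With the offsets 12 of the 18 fell and 3 rose, and the median log2 fold change was -0.44. The counts of both lists without the offsets stand beside the 34.8% of all genes called lower. With the offsets, 10720 of all genes tested were called in either direction, against 10975 without them. Both lists were drawn up with earlier results of the series known.

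**Figure D3:**
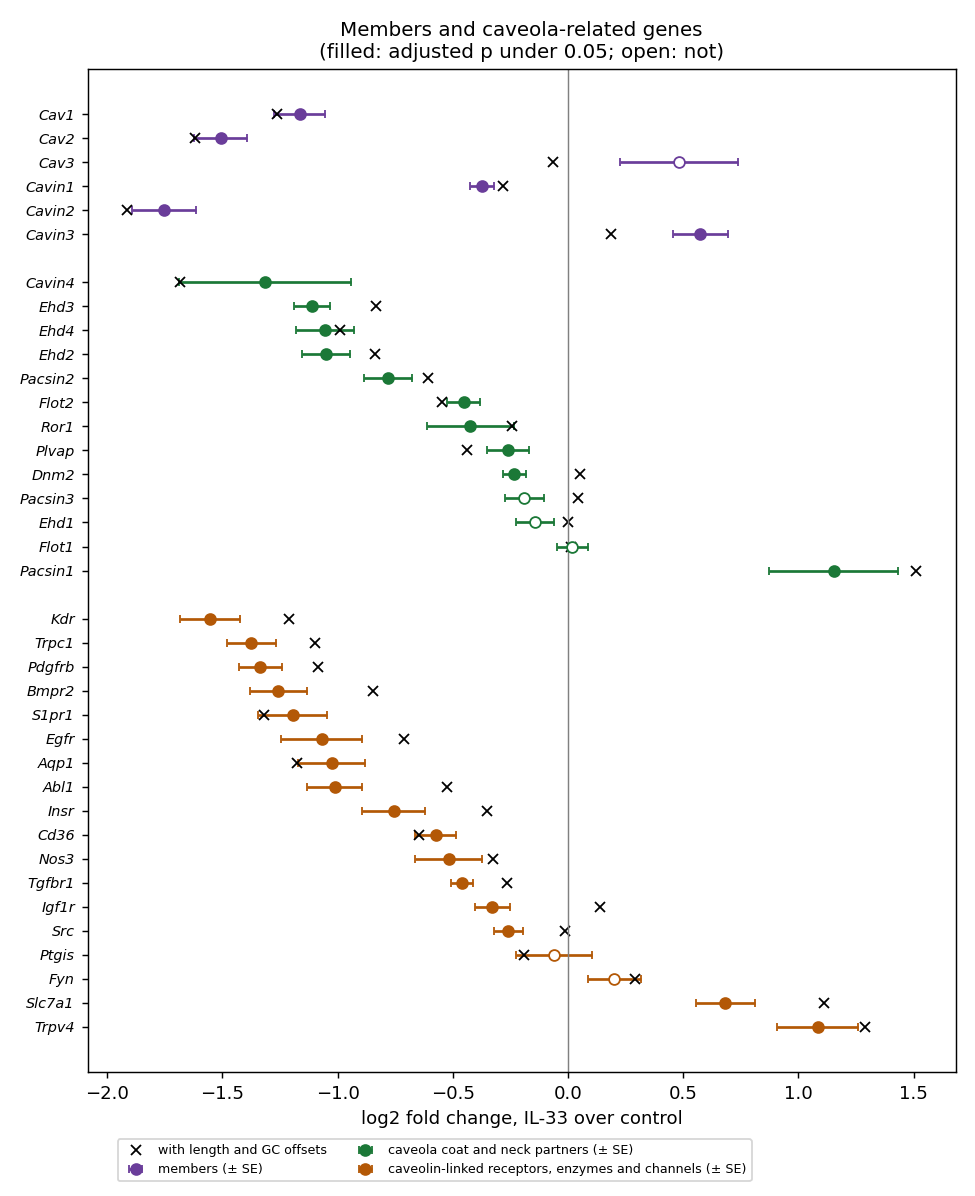
Log2 fold changes, IL-33 over control (horizontal axis), of the 6 members and of the 13 and 18 related genes, with SE bars; filled points were called at an adjusted p under 0.05, and crosses give the value with length and GC offsets. Cav1, Cav2, Cavin1 and Cavin2 lie left of 0 in both fits, while Cav3 and Cavin3 move toward or past 0 with the offsets.

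Marker genes of the cells that carry most caveolae in lung were mostly lower too. Without the offsets, 34.8% of all genes tested were called lower and 35.1% higher, and the counts below stand beside those shares. Of 12 alveolar type 1 markers 11 fell and 0 rose (median log2 fold change -1.20), and their summed level was 3098 to 4071 CPM in IL-33 and 7769 to 8621 CPM in control libraries. Of 9 capillary endothelial markers 8 fell and 0 rose (median -1.13), summing to 1062 to 1293 CPM in IL-33 and 2027 to 2349 CPM in control libraries. Of 12 pan-endothelial markers 7 fell, 0 rose and 5 were not called (median -0.49). They summed to 3087 to 3729 CPM in IL-33 and 5201 to 5538 CPM in control libraries. Fibroblast markers were mixed, 4 higher and 6 lower of 11, at 4575 to 5322 CPM in IL-33 and 5906 to 6486 CPM in control libraries. Smooth muscle and pericyte markers, 2 higher and 4 lower of 10, overlapped between the groups at 1376 to 1500.2 CPM in IL-33 and 1268 to 1634 CPM in control libraries. Leukocyte markers rose in 7 of 7 cases, to 2556 to 3212 CPM in IL-33 libraries, against 719 to 1152 CPM in control libraries, and cycling cell markers rose in 4 of 4, to 418 to 644 CPM in IL-33 libraries, against 34.2 to 44.1 CPM in control libraries. Of 5 alveolar type 2 markers 1 rose and 3 fell, at 14722 to 17578 CPM in IL-33 and 16101 to 19133 CPM in control libraries. Mesothelial markers (1 higher and 2 lower of 4) came to 49.8 to 105 CPM in IL-33 and 106 to 153 CPM in control libraries, and adipocyte markers (2 lower of 4 tested) to 1.18 to 37.0 CPM in IL-33 and 21.1 to 82.6 CPM in control libraries. With the length and GC offsets, pan-endothelial markers gave 2 higher and 8 lower of 12, and alveolar type 2 markers 0 higher and 4 lower of 5. Over all genes tested, 10720 were called in either direction with the offsets, against 10975 without them. Under the same offsets capillary markers gave 0 higher and 9 lower, alveolar type 1 markers 0 higher and 12 lower, and smooth muscle and pericyte markers 2 higher and 5 lower, while the counts of the fibroblast, mesothelial, adipocyte, leukocyte and cycling cell lists were as without them. No gene of any of these lists was without reads, and alveolar type 2 markers, led by Sftpc, were abundant in every library. The part of these cell types in the levels of Cav1, Cav2, Cavin1, Cavin2 and Cavin3 was not tested.

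Cav3 was set beside the muscle content of the samples, which was uneven. Of 14 cardiac and skeletal muscle markers, 13 were tested, of which 11 fell and 0 rose with or without the offsets. Without them, 34.8% of all genes tested were called lower and 35.1% higher. With them, 10720 genes were called in either direction, against 10975 without. The summed level of the muscle markers was 225 to 677 CPM in IL-33 and 632 to 2496 CPM in control libraries, with overlapping groups. Cavin4, the muscle cavin, is not one of the 6 but is one of the 13 genes that build or bound caveolae. It had the largest fall of the 13, to 1.17 ± 0.469 CPM in IL-33 lungs, against 2.97 ± 1.17 CPM in control lungs (log2 -1.31 ± 0.37, adjusted p = 0.00323 by edgeR). Its level was low, like that of Cav3, at 0.574 to 1.69 CPM in IL-33 and 1.77 to 4.46 CPM in control libraries. Cav3, as given above, was not called. IL-33 library 1 had the highest Cav3 level of all libraries, 2.96 CPM, and the lowest muscle sum, 225 CPM. Control library 4 had the lowest Cav3 level, 0.963 CPM, and the lowest control muscle sum, 632 CPM. Control library 2 had the highest control Cav3 level, 2.73 CPM, and the highest muscle sum of all libraries, 2496 CPM. Control libraries 1, 3 and 5 had 2.05, 1.58 and 1.52 CPM of Cav3 beside muscle sums of 1070, 1144 and 2098 CPM. The part of muscle tissue in the Cav3 values was not tested.

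**Figure D4:**
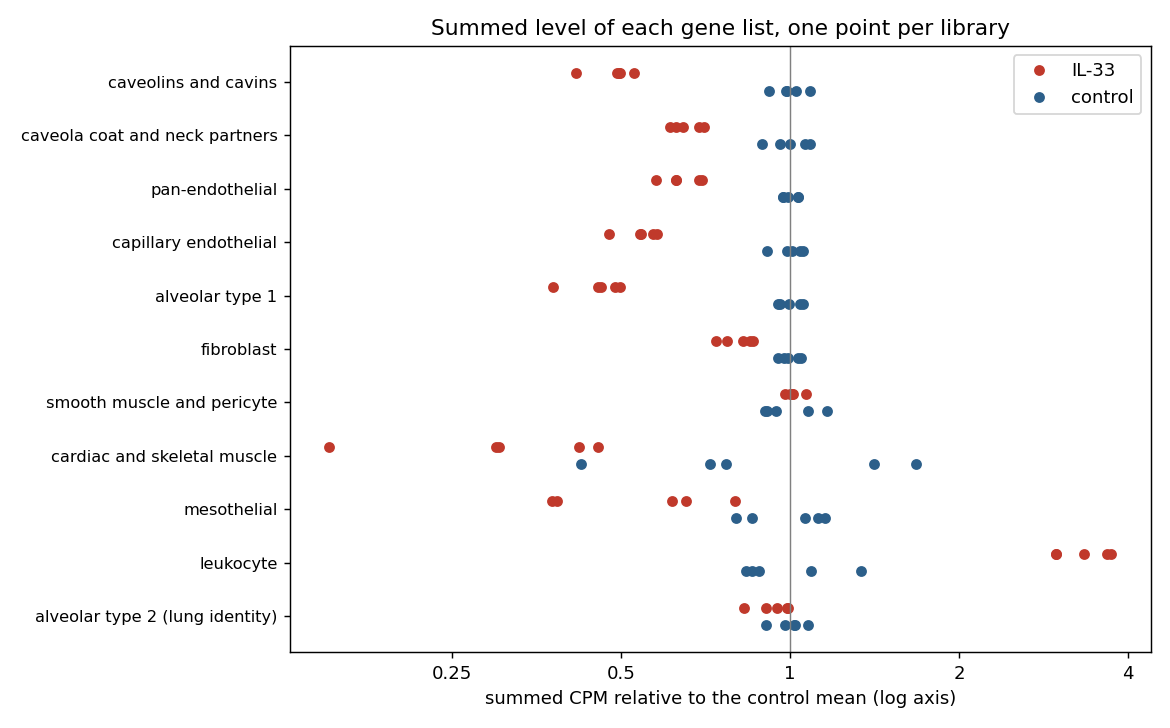
Summed CPM of each gene list in each library relative to the mean of the 5 control libraries (horizontal log axis), with IL-33 and control libraries as separate rows of points. In IL-33 lungs the caveolins and cavins sum to 0.416 to 0.528 of the control mean, alveolar type 1 markers to 0.379 to 0.498 and capillary markers to 0.476 to 0.58. Smooth muscle, cardiac and skeletal muscle, and alveolar type 2 markers overlap between the groups, and leukocyte markers lie above.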

How the data were processed

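PolyA-selected lung RNA was made into stranded libraries, per the labels' protocols. The submitters' processing notes name FastQC 0.11.6, MultiQC 1.6, STAR 2.5.4b, HTSeq 0.9.1 and GRCm38; the sources used here do not give the annotation release or the strand setting. What the authors deposited are raw, unnormalized read counts for each gene. Entries naming no gene entered neither library sizes nor tests. Ambiguous records were 0.862% to 0.945% of all records. Records with no feature were 11.4% to 13.7% in IL-33 and 10.4% to 11.1% in control libraries. Multiply aligned records were 20.0% to 22.8% in IL-33 and 15.0% to 16.2% in control libraries. The groups did not overlap in either of these last shares, and their bearing on gene levels was not tested. Libraries of a group differed beyond sampling noise (chi-square over its degrees of freedom was 5.44 to 30), and all were kept as separate samples. Of 53465 identifiers, 53360 matched GENCODE M21 (GRCm38), the source of positions and lengths.

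A model with only the group term was fitted over all genes and 10 libraries with R 4.3.3 and edgeR 4.0.16, after filterByExpr and TMM scaling (0.969 to 1.03); quasi-likelihood p-values were adjusted by Benjamini-Hochberg and read at 0.05. CPM use the TMM-scaled library sizes. The p-values set the groups' difference against the spread between libraries. The script was tested on simulated data in which a small share of genes changed, in random directions. In the data 69.9% of genes tested were called, so that trial does not cover scaling in such a setting. Alternatives were relative log expression factors, library size alone, scaling without the 50 most abundant genes, DESeq2 1.42.0, limma-voom (limma 3.58.1), no low-count filter or one of 1 CPM in 5 libraries, the replicate block, length and GC offsets with and without that block, a threshold of 0.01, and dropping libraries 1 at a time.

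The members and lists were chosen with earlier results of these data known. Outside the family, the text names, of each of the 2 related lists, up to 3 called genes with the largest change in each direction and the most abundant gene, and the genes nearest in pattern (5 for Cav1, 2 for each other member); genes named beyond that, those not called among them, were chosen after their values were seen. Python 3.11.15, numpy 2.4.6, pandas 2.3.3 and matplotlib 3.10.9 were used for tables and plots.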

Additional observations from a re-analysis of the deposited data

Results flagged for a closer look

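Among 56 groups of 5 values tested for a library far from the others, 3 were flagged, where chance flags about 1 in 20. Pacsin1 stood at 6.09 CPM in IL-33 library 2, against 3.85 to 4.41 CPM in the other IL-33 libraries. Trpc1 stood at 10.3 CPM in IL-33 library 5, against 7.35 to 7.90 CPM in the other IL-33 libraries. The ratio of Cavin3 to Cavin1 reads was 0.0426 in control library 4, against 0.0513 to 0.0546 in the other control libraries. No level of a member itself was flagged.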

How the results depend on the processing

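Cav1, Cav2, Cavin1 and Cavin2 were the 4 members called lower under each of the 21 alternatives, with log2 fold changes, over the 20 that refit them, of -1.27 to -1.08, -1.63 to -1.42, -0.42 to -0.28 and -1.93 to -1.64. Of the members, 4 to 6 were called; the number called higher was 0 with length and GC offsets and 1 to 2 on leaving out a library, 2 without control library 2, when Cav3 was called at 0.66. With those offsets Cav3 turned to -0.0645 (-0.0323 with the replicate block added) and Cavin3 came to 0.18, its call lost; the cause was not tested. The related lists held 8 to 11 of 13 and 15 to 17 of 18 calls, and all genes 9316 to 12120. Plvap lost its call at an adjusted p of 0.01 and without IL-33 library 4. Same-numbered libraries were not shown to be paired: their deviations correlated at -0.07 to 0.23, and the own number was the best match for 3 of 5 numbers. The replicate block gave 11122 called genes, against 10975 without it, and 5 called members either way. Cav3, at 11 to 36 reads per library, is the member whose depth limits its precision most.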
